A study of Clytia hemisphaerica and Astroides calycularis and Pocillopora acuta with 17 samples.

Results

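Nk2d cells of the planula larva of the hydrozoan Clytia hemisphaerica are a small population marked by the transcription factor gene Nk2d (XLOC_043740). The genes described here are 4 of the 18761 features of the deposited single-cell matrices: MSTRG.12245 and XLOC_004388, which carry ion channel domains, XLOC_030186, which carries a signal peptide and no annotated domain, and XLOC_008367, for which neither a domain nor a signal peptide is annotated. They were chosen by identifier as genes tied to the Nk2d cells, and were followed in all 6 matrices from sample to sample, by age, by the share of cells that hold them, by their co-occurrence with Nk2d and in the cells that hold them outside the Nk2d population. Clytia larvae were collected at 66 hours post fertilization (hpf) and at 52 hpf, each as 1 pool of larvae whose cells were run as 2 technical replicates. A further ACME sample (a fixative of acetic acid and methanol) joined 5 captures in 1 matrix, and a last sample was fixed with methanol and captured once. All 4 samples were of unmanipulated larvae, and the study's methods give the 66 hpf and 52 hpf larvae as ACME-fixed too. The study places the ACME and methanol larvae at the younger of these ages. Its new captures were at these 2 ages and were integrated with an existing planula dataset. The ACME and methanol samples are not among those new captures. Their labels give no age, so they enter no group by age and are set beside the ages only. Each age and the methanol fixation rest on 1 sample, so differences between samples are values without a test, and the intervals given for them are exact and cover counting error only.

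The planula is the ciliated, free-swimming larva of a cnidarian, with an outer epidermis and an inner gastrodermis. Its nervous system is made of scattered neural cells, many of which release short amidated peptides. Nk2 homeodomain proteins are transcription factors with roles in regional and cell type identity in many animals. Ion channels let ions cross the cell membrane, and channels that combine a pore with a solute-binding domain of bacterial type, as XLOC_004388 does, include the ionotropic glutamate receptors. A signal peptide directs a protein into the secretory route, to be released or placed in a membrane. MSTRG.12245, XLOC_004388 and XLOC_030186 have one, so that the description as ion transporter or secreted genes fits 3 of the 4.

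After filters on depth, genes and mitochondrial reads, 15372 of 19087 barcodes were kept: 5446 at 66 hpf, 2708 at 52 hpf, 4416 in the ACME and 2802 in the methanol sample, with a median of 1412, 1610, 1643 and 941 unique molecular identifiers (UMIs, each 1 counted RNA molecule). The clustered cells held 20700370, 12896792, 17303524 and 5318728 UMIs in the same order, and no 2 matrices shared more than 5 barcodes. Clustering placed 15142 cells in 30 clusters. Cluster 11, with 132 cells, had all 4 genes used to name Nk2d cells (MSTRG.18917, XLOC_007889, XLOC_007968 and Nk2d) raised over the other clusters and is called Nk2d-like below. It held 66 cells at 66 hpf, 19 at 52 hpf, 34 in the ACME and 13 in the methanol sample, which were 1.24%, 0.708%, 0.775% and 0.473% of the clustered cells of those samples. MSTRG.18917, its most abundant naming gene, stood at 15815, 18616, 15530 and 4791 UMIs per 1000000 UMIs (CPM) in these cells, and the neural markers ELAV-2 (XLOC_030971) and Synaptotagmin (XLOC_000865) were present in each sample, at 1150, 648, 707 and 1095 CPM and at 910, 615, 825 and 548 CPM. The methanol cells stood apart, with a median of 882 UMIs, 14612 UMIs in all, and XLOC_007889 at 68.4 CPM against 550 to 684 CPM in the other samples. The 4 genes and the naming genes were kept out of the genes used for clustering, but they were chosen for this population and the clusters come from the other counts of the same cells, so their levels in Nk2d-like cells are a description, without a test.

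MSTRG.12245 encodes an ion transport protein of the ion channel class. It stood at 341 CPM in the Nk2d-like cells at 66 hpf (51 UMIs, 254 to 448), at 97.1 CPM at 52 hpf (6 UMIs, 35.6 to 211) and at 401 CPM in the ACME sample (51 UMIs, 298 to 527), and at 0 UMIs in the methanol sample, which allows up to 205 CPM (3 UMIs). In all other cells together it stood at 2.38, 1.402, 3.67 and 6.98 CPM in the same order. The gene was thus highest in the ACME and 66 hpf cells, lower at 52 hpf, and not detectable at the depth of the 13 methanol cells.

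XLOC_004388, the channel gene with the solute-binding domain, stood at 247 CPM at 66 hpf (37 UMIs), 64.8 CPM at 52 hpf (4 UMIs), 228 CPM in the ACME sample (29 UMIs) and 205 CPM in the methanol sample (3 UMIs). Its level in all other cells was 2.82, 1.09, 2.50 and 4.15 CPM. The 52 hpf cells were lowest. The methanol value rests on 3 molecules in 1 cell. Its partner in domain content, MSTRG.12243, which carries the ion channel and solute-binding domains and belongs to the study's list of aborally enriched ion channel genes, stood at 1157, 502, 1085 and 479 CPM.

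XLOC_030186, the putative secreted gene, was the most abundant of the 4, at 16618 CPM at 66 hpf (2485 UMIs), 10101 CPM at 52 hpf (624 UMIs), 14359 CPM in the ACME sample (1827 UMIs) and 1232 CPM in the methanol sample (18 UMIs). It therefore made up more than 1 in 100 of all molecules of the Nk2d-like cells in the 3 samples other than methanol, as MSTRG.18917 did. In all other cells it stood at 42.9, 36.7, 21.8 and 14.9 CPM.

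XLOC_008367, of which the files give no function, stood at 542 CPM at 66 hpf (81 UMIs), 146 CPM at 52 hpf (9 UMIs), 511 CPM in the ACME sample (65 UMIs) and 342 CPM in the methanol sample (5 UMIs). In all other cells it was at 3.41, 0.701, 2.50 and 1.32 CPM. Nk2d itself stood at 194, 80.9, 236 and 137 CPM in Nk2d-like cells (29, 5, 30 and 2 UMIs). Over the 4 samples the means were 210 ± 192 CPM for MSTRG.12245, 186 ± 82.9 CPM for XLOC_004388, 10577 ± 6791 CPM for XLOC_030186, 385 ± 182 CPM for XLOC_008367 and 162 ± 67.5 CPM for Nk2d (SD, n = 4 samples). These are levels on the CPM scale and not per transcript length, so the 4 genes are not ranked against each other as transcript numbers beyond their UMI counts. XLOC_004388, XLOC_030186 and XLOC_008367 were more than 4 times as high in Nk2d-like cells as in all other cells in every sample, and MSTRG.12245 was so in the 3 samples other than methanol. Of all features, 1.71% were more than 4 times as high in every sample, a background from which nothing is read because the genes were chosen for this contrast.

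**Figure D1:**
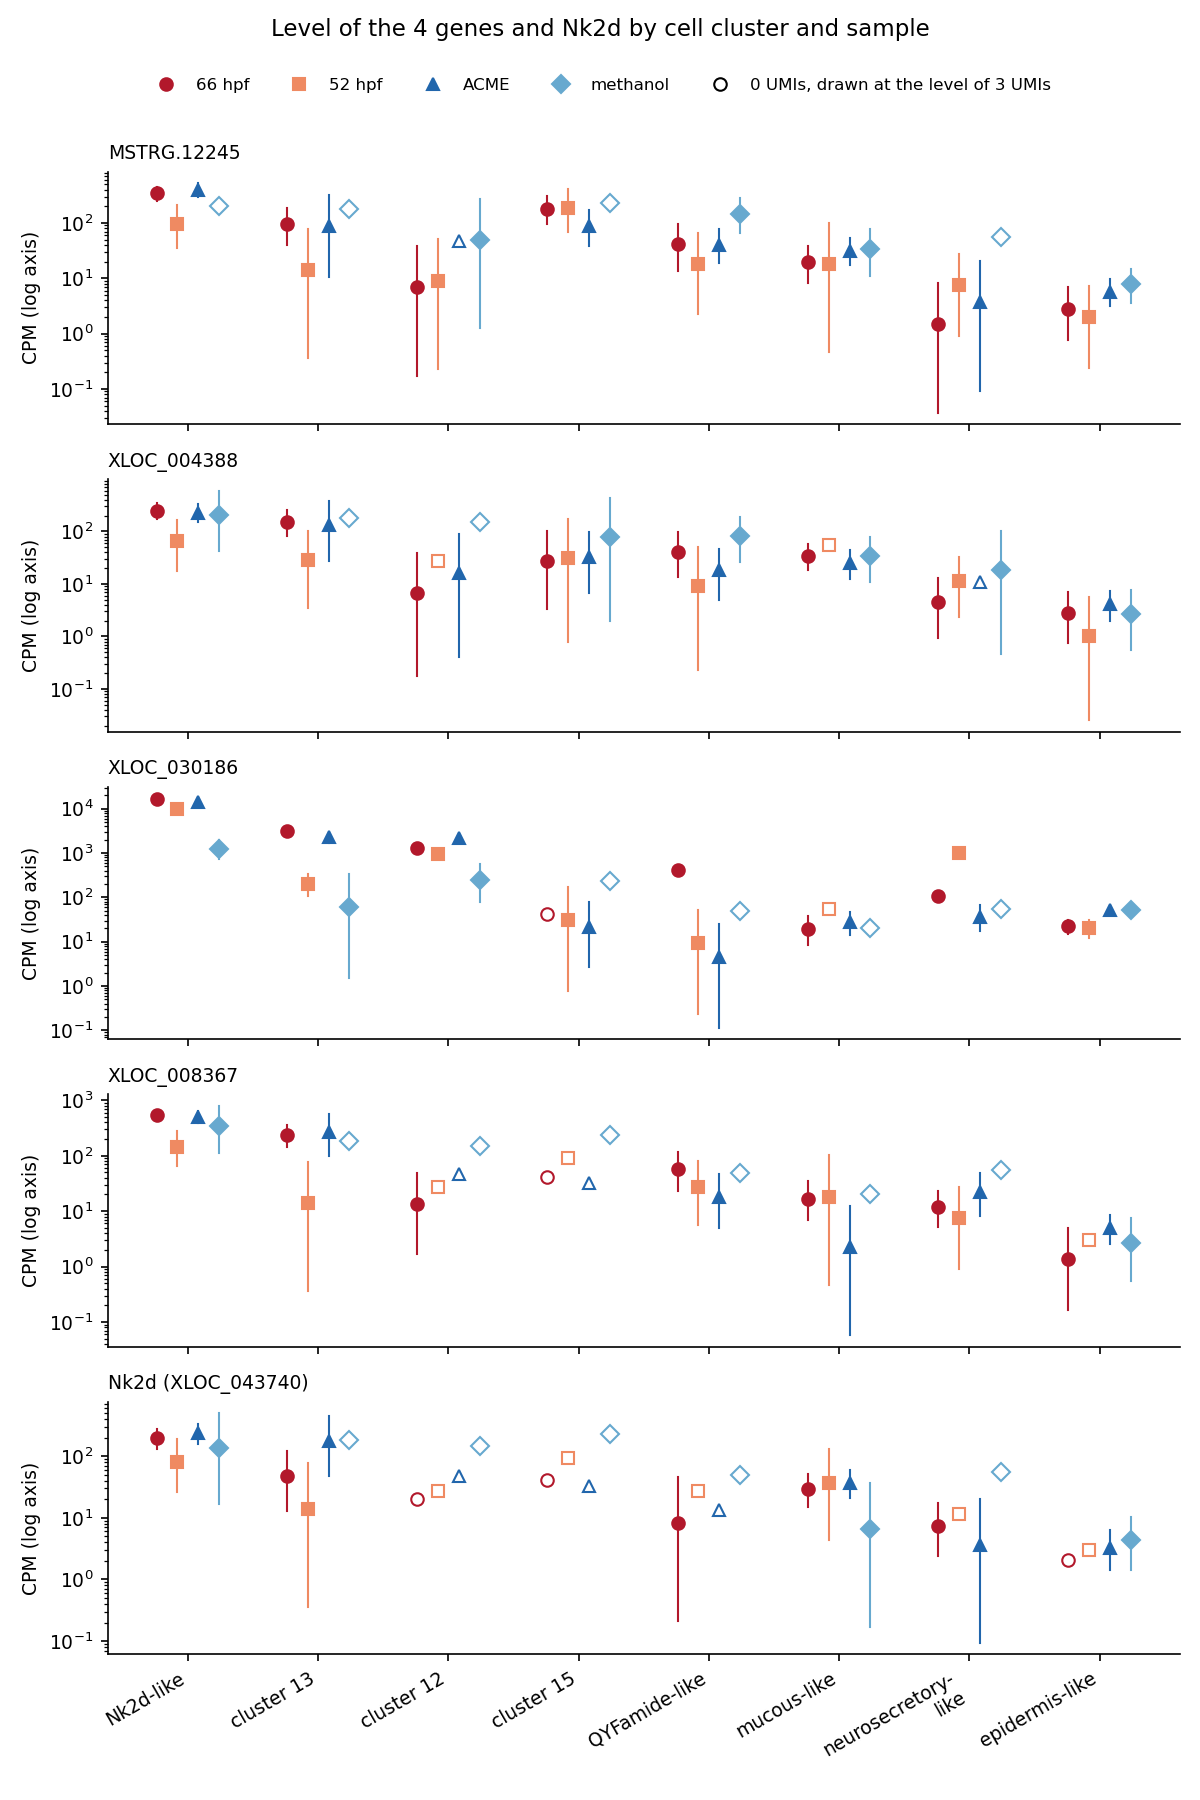
Level of each gene in CPM (logarithmic axis) in the Nk2d-like cells and the other clusters named in the text, with 1 point for each of the 4 samples, exact 95% intervals for counting error as bars, and open symbols at the level of 3 UMIs where a sample had 0. XLOC_030186 lies at 10101 to 16618 CPM in the Nk2d-like cells of the 66 hpf, 52 hpf and ACME samples and at 1232 CPM in the methanol sample.

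Ranked by the mean over samples, the Nk2d-like cells were the highest of the 30 clusters for each of the 4 genes. Cluster 15 (113 ± 87.6 CPM, SD, n = 4 samples) and the QYFamide-like cells (61.5 ± 57.2 CPM), named for a neuropeptide, followed for MSTRG.12245. Cluster 17 (86.4 ± 74.1 CPM, on 4 UMIs) and cluster 13 (78.4 CPM) came next for XLOC_004388, cluster 13 (1401 ± 1509 CPM) and cluster 12 (1184 ± 806 CPM) for XLOC_030186, and cluster 13 (129 ± 141 CPM) for XLOC_008367. For XLOC_030186 the gap between the Nk2d-like cells and cluster 13 was larger than the 2 SDs added together. For XLOC_008367 and XLOC_004388 the gap below the Nk2d-like cells was larger than either SD but not than their sum, and for MSTRG.12245 it was smaller than the SD of the Nk2d-like cells.

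Cluster 13 held 122 cells, 52, 17, 35 and 18 in the 66 hpf, 52 hpf, ACME and methanol samples, with a median of 588 UMIs. Only 2 of the 4 naming genes were raised in it, and it was left unnamed. Nk2d had 9 UMIs in 8 of its cells, below the minimum of 10 UMIs for a raised gene. At 47.0, 14.1, 177 and 0 CPM, cluster 13 ranked 2 for Nk2d by the mean over samples (59.5 CPM). Of the 8 cells, 7 held at least 1 of the 4 genes. Whether cells of cluster 13 belong to the Nk2d population was not tested. XLOC_030186 stood there at 3092, 197, 2253 and 60.4 CPM, XLOC_008367 at 235, 14.1, 265 and 0 CPM, XLOC_004388 at 153, 28.2, 133 and 0 CPM, and MSTRG.12245 at 94.1, 14.1, 88.4 and 0 CPM. In each sample each of the 4 genes was lower in cluster 13 than in the Nk2d-like cells, apart from the methanol sample, where 3 of the genes were at 0 UMIs in cluster 13 and MSTRG.12245 in both. The 66 hpf and ACME values were above the 52 hpf value for each gene, as in the Nk2d-like cells. For MSTRG.12245, XLOC_004388 and XLOC_008367 the ACME values rest on 2, 3 and 6 UMIs, and the 52 hpf values on 1, 2 and 1. The intervals of these 2 samples overlapped for both channel genes. Of the 51 ACME UMIs of XLOC_030186, 50 were in 1 cell. The order of ACME and 52 hpf is thus uncertain. A count of 0 in the methanol cells allows up to 181 CPM (3 UMIs) and cannot be ordered against the others.

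The Nk2d-like cells were not uniform in these genes. XLOC_030186 had at least 1 UMI in 86 of the 132 cells, XLOC_008367 in 45, MSTRG.12245 in 43 and XLOC_004388 in 32, and 39 cells held none of the 4, 30 held 1, 26 held 2, 24 held 3 and 13 held all 4. The 2 abundant secretory-type transcripts divided the cells: 70 cells had more UMIs of XLOC_030186 than of MSTRG.18917, 55 had more of MSTRG.18917, and 7 had equal numbers. At least 10 UMIs of both were seen in 11 cells, against 24.2 if the 55 and 58 cells with 10 or more of each gene had been combined independently over the 132 cells. The ion and uncharacterized genes sat on the XLOC_030186 side. Of their UMIs in the unequal cells, MSTRG.12245 had 106 in cells with more XLOC_030186 and 2 in cells with more MSTRG.18917, XLOC_004388 had 69 and 4, XLOC_008367 had 136 and 6, and Nk2d had 63 and 1. In CPM these were 541 and 13.8 for MSTRG.12245, 352 and 27.5 for XLOC_004388, 694 and 41.2 for XLOC_008367 and 322 and 6.87 for Nk2d. The paper already describes its Nk2d cluster as heterogeneous, with Nk2d and MSTRG.18917 mapping to different subpopulations. It proposes an aboral subpopulation with Nk2d, a short secreted protein and 2 ion transporters. The 4 genes were chosen as tied to the Nk2d cells, so their place opposite MSTRG.18917 is not independent evidence of a division. The median depth was 2238 UMIs on the XLOC_030186 side and 2553 UMIs on the MSTRG.18917 side over all samples. By sample it was 1837 and 2286 UMIs at 66 hpf, 3261 and 3264 at 52 hpf, 3769 and 3370 in the ACME sample and 2570 and 886.5 in the methanol sample, so that the MSTRG.18917 side was the shallower in the last 2, and the part of depth was not tested. Cells with more XLOC_030186 numbered 41, 9, 19 and 1 in the 66 hpf, 52 hpf, ACME and methanol samples, and cells with more MSTRG.18917 numbered 22, 10, 15 and 8. The methanol sample thus held 1 cell of the XLOC_030186 side. Its 3 UMIs of XLOC_004388 all lay on the MSTRG.18917 side, in 1 cell with 1 UMI of XLOC_030186 and 3 of MSTRG.18917. The balance of the 2 sides moves with the sample values above, and its part in them was not tested.

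**Figure D2:**
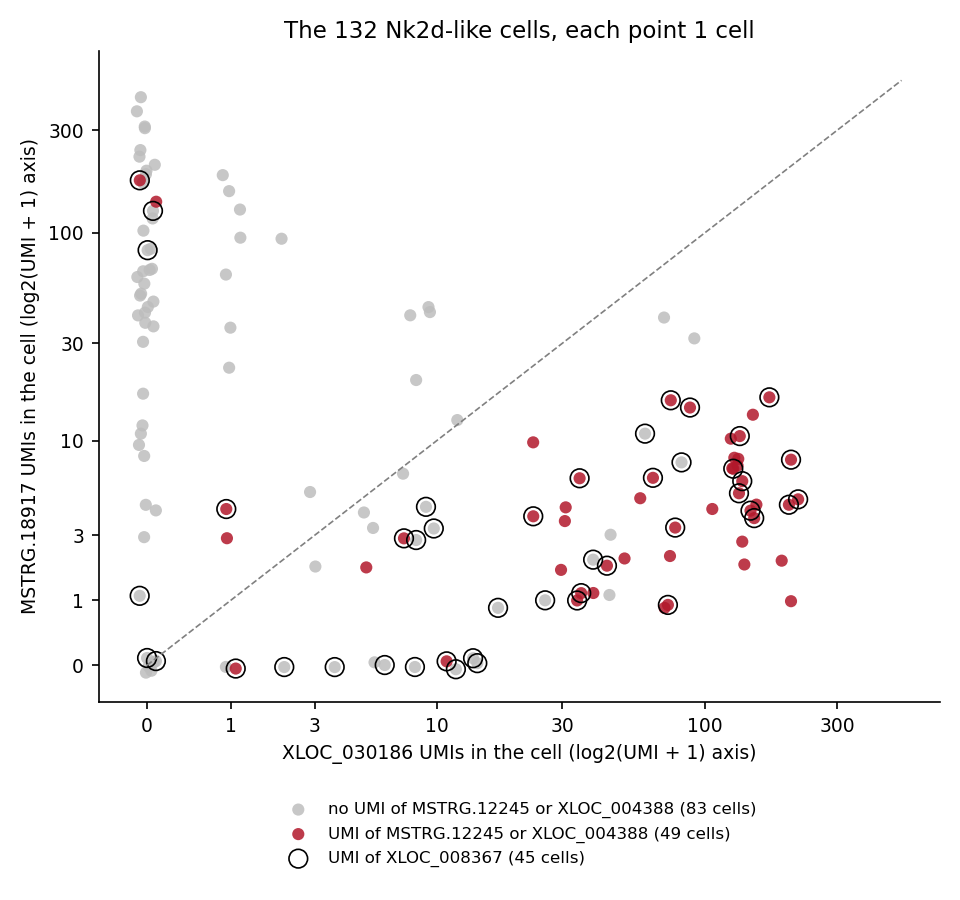
UMIs of XLOC_030186 and of MSTRG.18917 in each of the 132 Nk2d-like cells (axes on the log2(UMI + 1) scale, points shifted slightly at random so that equal values show), in red where the cell holds MSTRG.12245 or XLOC_004388 and ringed where it holds XLOC_008367, with a dashed line of equal numbers. In 70 cells XLOC_030186 was the higher and in 55 MSTRG.18917, and most UMIs of MSTRG.12245 (106, against 2) and XLOC_004388 (69, against 4) lie in the cells with more XLOC_030186.

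Within single Nk2d-like cells, the 3 lower genes were mostly seen together with XLOC_030186, which 86 of the 132 cells held. XLOC_030186 was present in 32 of the 32 cells with XLOC_004388, in 41 of the 43 with MSTRG.12245 and in 39 of the 45 with XLOC_008367. The 2 channel genes were found together in 26 cells, against 11.5 if they had been placed independently within samples. MSTRG.12243 was present in 57 of the 132 Nk2d-like cells, in 39 of the 43 with MSTRG.12245 and in 31 of the 32 with XLOC_004388. MSTRG.12243, XLOC_004388 and MSTRG.12245 stand in consecutive rows of the feature list. If these gene models overlap or resemble each other, reads could be split between them, which was not tested, and their individual values are uncertain to that extent. MSTRG.12245 made up 23.6% of the summed UMIs of MSTRG.12245 and MSTRG.12243 in Nk2d-like cells (19.8% to 27.8%), 20.2% in cluster 15 and 27.9% in epidermis-like cells, while cluster 17 had 0 UMIs of MSTRG.12245 beside 31 of MSTRG.12243 and GLWamide-like cells 0 beside 11. XLOC_004388 made up 17.3% of its sum with MSTRG.12243 in Nk2d-like cells (13.8% to 21.3%) and 6.14% in cluster 15 (2.50% to 12.2%), so that the ratios of these neighbors were not the same in every cluster.

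**Figure D3:**
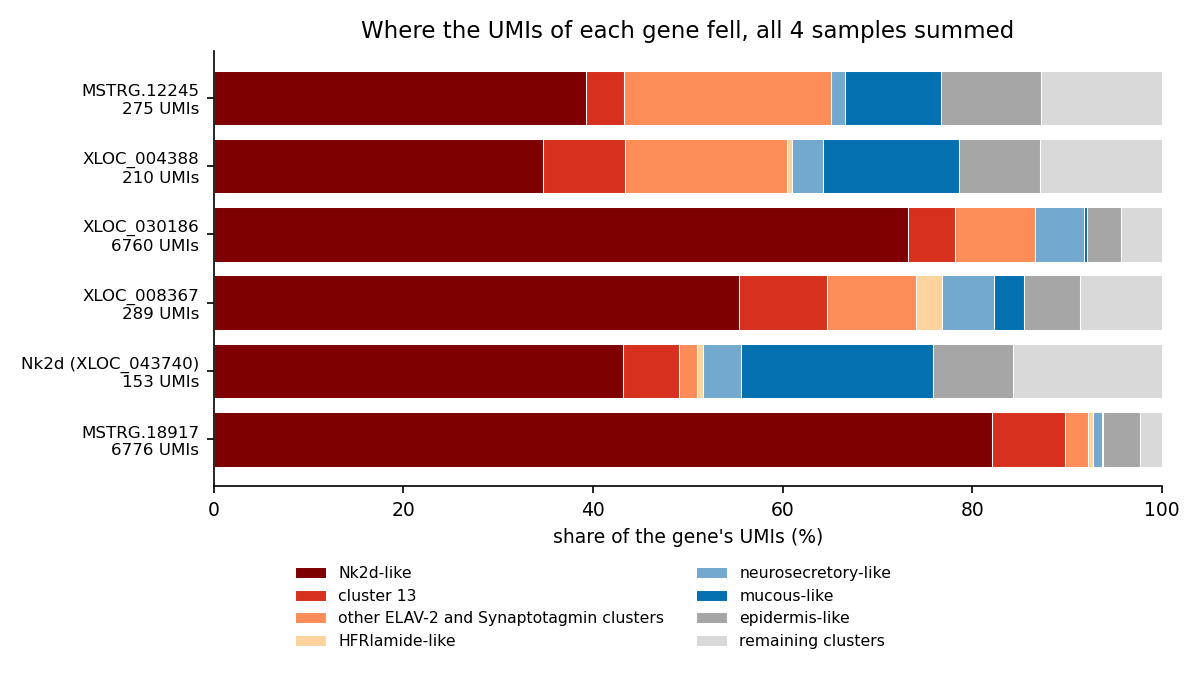
Share of all UMIs of each gene (percent, over the 4 samples together) that lay in the Nk2d-like cells, in cluster 13 and in the other clusters. The Nk2d-like share was 73.3% for XLOC_030186, 55.4% for XLOC_008367, 39.3% for MSTRG.12245 and 34.8% for XLOC_004388.

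Although the Nk2d-like cells had the highest levels, they were few, and much of the RNA of the lower genes lay elsewhere. They held 73.3% of the 6760 UMIs of XLOC_030186, 55.4% of the 289 UMIs of XLOC_008367, 39.3% of the 275 UMIs of MSTRG.12245 and 34.8% of the 210 UMIs of XLOC_004388. Outside both the Nk2d-like cells and cluster 13 lay 21.9%, 35.3%, 56.7% and 56.7% of the UMIs in the same gene order. For comparison, the Nk2d-like cells held 43.1% of the 153 UMIs of Nk2d and 82.1% of those of MSTRG.18917. Nk2d was thus spread over other cells to a degree near that of the 2 channel genes.

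Shares of cells depend on depth, so each cell was thinned to 500 UMIs. XLOC_030186 was then present in 56.2% of 130 Nk2d-like cells (47.2% to 64.8%), XLOC_008367 in 14.6%, MSTRG.12245 in 11.5% (6.60% to 18.3%), XLOC_004388 in 8.46% and Nk2d in 11.5%, with 2 shallower cells left out. The unthinned shares were 65.2% for XLOC_030186, 34.1% for XLOC_008367, 32.6% for MSTRG.12245 and 24.2% for XLOC_004388. In the epidermis-like cells, where RNA free in the suspension would also be counted, the thinned shares were 1.80%, 0.224%, 0.337% and 0.299% for XLOC_030186, XLOC_008367, MSTRG.12245 and XLOC_004388 (median 741 UMIs in the cells thinned, and 4.29%, 0.437%, 0.745% and 0.437% unthinned). Within epidermis-like cells, XLOC_030186 made up 45.7%, 40.8%, 47.1% and 51.3% of the summed UMIs of XLOC_030186 and MSTRG.18917 in the 66 hpf, 52 hpf, ACME and methanol samples, against 51.2%, 35.2%, 48.0% and 20.5% in the Nk2d-like cells. The low XLOC_030186 counts were not alike in all cells: cluster 19, which is epidermis-like, had it at 30.2, 38.3, 141 and 90.6 CPM, and cluster 3, which is unnamed, at 1.54, 2.77, 1.33 and 2.85 CPM in the same sample order. Their source was not tested.

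Nk2d was detected in 98 of the 15142 clustered cells, 34 of them Nk2d-like. Over all kept cells, Nk2d and MSTRG.12245 were found together in 35 cells, against 1.18 if they had been placed independently within samples. Nk2d and XLOC_004388 shared 31 cells, against 1.06, Nk2d and XLOC_030186 43 cells, against 3.23, and Nk2d and XLOC_008367 24 cells, against 1.11. Deep cells hold more genes of any kind and the genes were chosen for one population, so the excess is a description. Within the Nk2d-like cells the pairs were seen in 24 cells against 11.8 for MSTRG.12245, 21 against 8.94 for XLOC_004388, 33 against 23.1 for XLOC_030186 and 18 against 12.1 for XLOC_008367. Each of the 34 Nk2d-like cells with Nk2d held at least 1 of the 4 genes, and 28 held a channel gene.

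In the other 15010 cells the pairs were rarer and still above the number expected from their frequencies, at 11 cells against 0.576 for MSTRG.12245, 10 against 0.542 for XLOC_004388, 10 against 1.71 for XLOC_030186 and 6 against 0.501 for XLOC_008367. Of the 64 cells with Nk2d outside the Nk2d-like cells, 23 held at least 1 of the 4 genes, 7 of them in cluster 13. Among the Nk2d-like cells, 28 held Nk2d with MSTRG.12245 or XLOC_004388 and 21 held one of these channel genes without Nk2d. Outside them the numbers were 17 and 213. At 153 UMIs of Nk2d in all, a cell without an Nk2d UMI cannot be taken to lack its RNA.

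**Figure D4:**
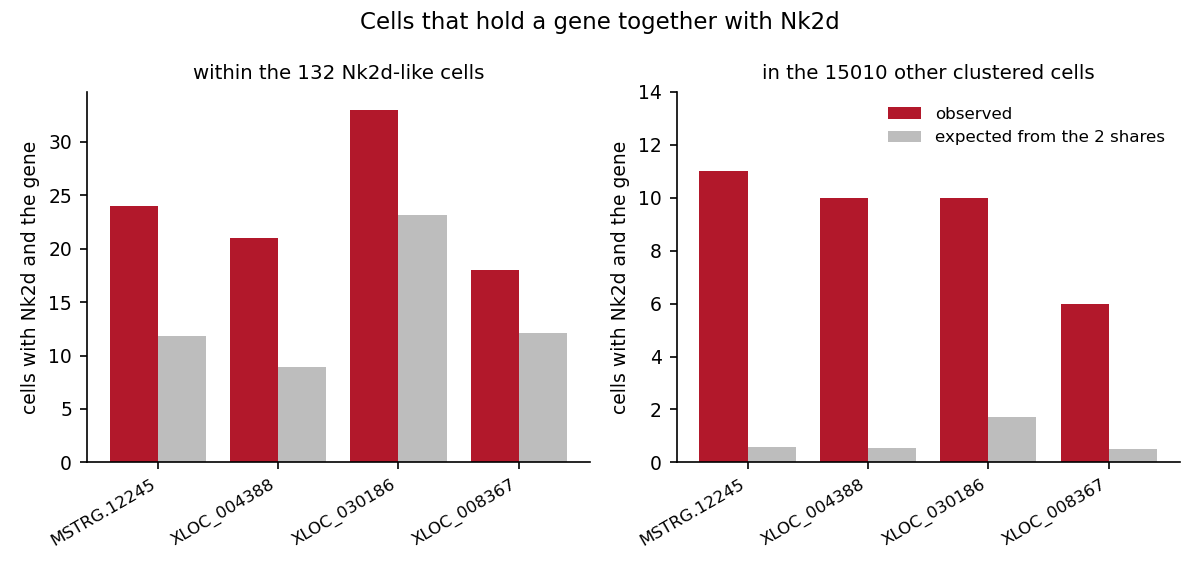
Cells in which Nk2d and each of the 4 genes were found together, observed and expected under independent placement within samples, in Nk2d-like cells and in the other 15010 cells. Observed numbers exceed the expected ones in both, at 24 against 11.8 for MSTRG.12245 in Nk2d-like cells and 11 against 0.576 elsewhere.

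The cells that held the channel genes outside the Nk2d population fell in several clusters, which were singled out after their values were seen and are described without a test. Cluster 15, 82 unnamed cells, had MSTRG.12245 at 180, 185, 87.3 and 0 CPM in the 66 hpf, 52 hpf, ACME and methanol samples (27 UMIs in 15 cells). MSTRG.12243 stood there at 650, 616, 382 and 388 CPM, while XLOC_008367 had 0 UMIs and XLOC_030186 had 3. In cluster 15 the 52 hpf value of MSTRG.12245 was thus not below the 66 hpf value. QYFamide-like cells had MSTRG.12245 at 41.1, 18.4, 40.7 and 146 CPM (25 UMIs in 18 cells) and XLOC_004388 at 41.1, 9.19, 18.1 and 81.0 CPM. These neural cells were highest in the methanol sample for both channel genes. GLWamide-like and HFRIamide-like cells, of 2 other neuropeptide classes, had 0 UMIs of MSTRG.12245, which allows up to 8.50 and 6.37 CPM.

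Mucous-like cells, 398 cells of gland type, held both channel genes and Nk2d at low levels. MSTRG.12245 stood at 19.3, 18.2, 31.7 and 33.5 CPM (28 UMIs in 21 cells) and XLOC_004388 at 33.8, 0, 24.9 and 33.5 CPM (30 UMIs in 25 cells) in the 66 hpf, 52 hpf, ACME and methanol samples. Nk2d stood at 29.0, 36.4, 36.3 and 6.69 CPM (31 UMIs in 18 cells). Of the 18 mucous-like cells with Nk2d, 9 held a channel gene, 5 of them MSTRG.12245, against 1.02 expected under independent placement, and 6 XLOC_004388, against 1.53. In contrast to the Nk2d-like cells, none of the 18 held XLOC_030186, of which the mucous-like cells had 20 UMIs in 6 cells, and MSTRG.18917 had 5 UMIs there.

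XLOC_030186 had another distribution outside the Nk2d population. Cluster 12, 129 unnamed cells, had it at 1331, 969, 2187 and 248 CPM in the 66 hpf, 52 hpf, ACME and methanol samples (195, 107, 138 and 5 UMIs, in 46 cells), a level present in each sample. Nk2d had 0 UMIs in cluster 12, and MSTRG.18917 had 53, of which 52 were in 1 cell of the 52 hpf sample, so that XLOC_030186 made up 89.4% of the sum with MSTRG.18917, unlike in epidermis-like or Nk2d-like cells. Of 31 cells outside the Nk2d-like cells and cluster 13 with at least 10 UMIs of XLOC_030186, 19 were in cluster 12. XLOC_030188, a gene singled out after its values were seen and listed near XLOC_030186 in the feature table, was present in 15 of those 19 cells. In the Nk2d-like cells, where XLOC_030186 is highest, only 2 cells held XLOC_030188. Reads shared between both gene models were not tested.

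**Figure D5:**
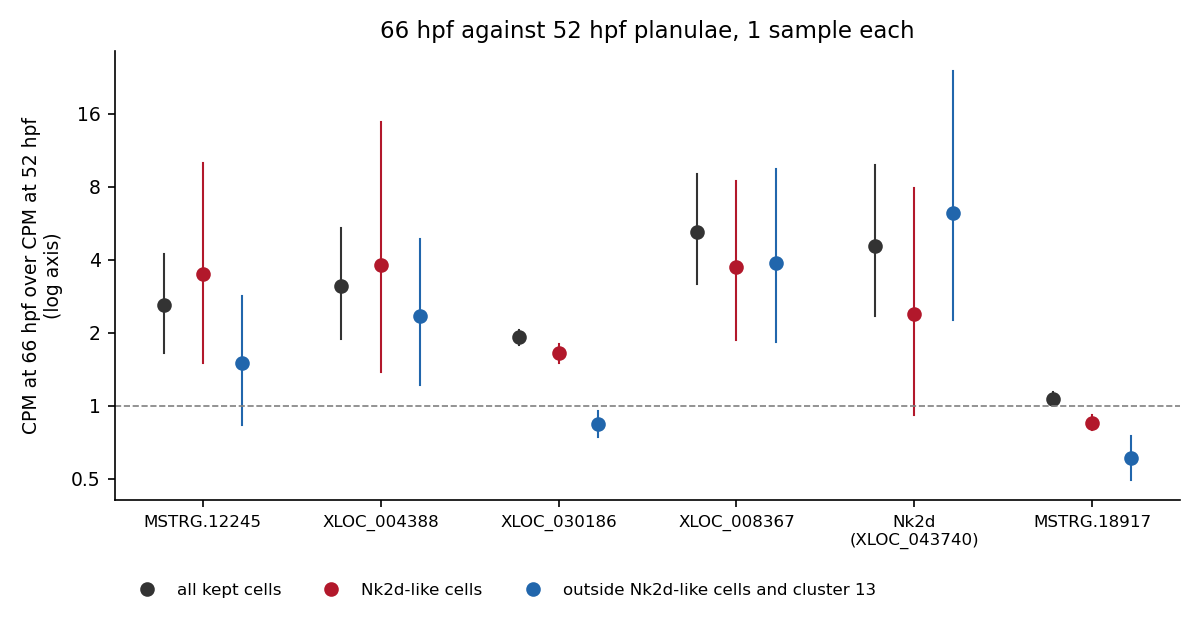
Ratio of the level at 66 hpf to that at 52 hpf (logarithmic axis) for each gene in all kept cells, in Nk2d-like cells and in the cells outside the Nk2d-like cells and cluster 13, with exact 95% intervals for counting error. XLOC_008367 has the highest ratio of the 4 genes in all kept cells, 5.22, and XLOC_030186 the lowest, 1.91.

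Over all kept cells, each of the 4 genes was higher at 66 hpf than at 52 hpf. XLOC_008367 stood at 7.27 CPM at 66 hpf and 1.39 CPM at 52 hpf, a ratio of 5.22 (3.19 to 9.05). XLOC_004388 stood at 4.57 and 1.47 CPM (3.11, 1.89 to 5.39), MSTRG.12245 at 4.81 and 1.86 CPM (2.59, 1.65 to 4.23) and XLOC_030186 at 162 and 84.7 CPM (1.91, 1.79 to 2.05). Nk2d had a ratio of 4.54 (2.34 to 9.87), and MSTRG.18917 one of 1.07. The levels in the ACME sample, 6.58 CPM for MSTRG.12245, 4.15 CPM for XLOC_004388 and 127 CPM for XLOC_030186, and in the methanol sample, 6.91, 4.67 and 18.1 CPM, were above the 52 hpf level for both channel genes. Over the 15297 genes with enough UMIs, 12.4% were more than 2 times as high and 1.84% more than 2 times as low at 66 hpf. MSTRG.12245, XLOC_004388 and XLOC_008367 were more than 2 times as high. With 1 pool of larvae at each age, the difference between ages and the difference between pools cannot be told apart.

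The share of Nk2d-like cells was itself higher at 66 hpf, at 1.24% of cells (0.961% to 1.58%) against 0.708% at 52 hpf (0.427% to 1.10%). Within the Nk2d-like cells the ratio of 66 hpf to 52 hpf was 3.82 for XLOC_004388 (1.37 to 14.8), 3.72 for XLOC_008367 (1.87 to 8.42), 3.51 for MSTRG.12245 (1.51 to 10.0) and 1.65 for XLOC_030186 (1.51 to 1.80), against 0.850 for MSTRG.18917. In these cells 19.5% of the 2910 genes with enough UMIs were more than 2 times as high at 66 hpf. The 52 hpf values for the 3 lower genes rest on 4 to 9 UMIs, and XLOC_004388 had 0 UMIs in the Nk2d-like cells of 52 hpf replicate 1. XLOC_030186 stood at 19709 and 13123 CPM in the 66 hpf replicates and at 7270 and 13100 CPM in the 52 hpf replicates, so that the lower 66 hpf and the higher 52 hpf value all but met. The ACME sample, which the study places at the younger age, was nearer to the 66 hpf than to the 52 hpf values in its Nk2d-like cells, with 401 CPM for MSTRG.12245, 228 CPM for XLOC_004388 and 511 CPM for XLOC_008367, against 97.1, 64.8 and 146 CPM in the 52 hpf sample. For these 3 genes the 52 hpf sample thus lay below the 66 hpf sample. It also lay below another sample placed at the same age, which is not among the new captures. MSTRG.12245 stood at 391 and 285 CPM in the technical replicates at 66 hpf (31 and 20 UMIs). At 52 hpf it stood at 62.9 and 133 CPM (2 and 4 UMIs). The values did not overlap, but the intervals of 66 hpf replicate 2 (174 to 440) and 52 hpf replicate 2 (36.3 to 341) did.

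Outside the Nk2d-like cells and cluster 13, the ratio of 66 hpf to 52 hpf was 3.90 for XLOC_008367 (1.83 to 9.52) and 2.34 for XLOC_004388 (1.22 to 4.86). For MSTRG.12245 it was 1.504 (0.836 to 2.82), an interval that includes no difference. XLOC_030186 had a ratio of 0.843 (0.746 to 0.954) there, which became 1.28 without 52 hpf replicate 1, and 252 of its 457 UMIs at 52 hpf were in a single neurosecretory-like cell.

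A comparison that did not use the Nk2d-like cells was made between the other clusters with raised ELAV-2 and Synaptotagmin (938 cells, cluster 13 included) and the remaining cells, with UMIs summed by sample and the sample kept as a block (4 pairs of sums). All 4 genes were higher in the sums of the neural clusters in edgeR's quasi-likelihood test. These were 9 clusters, the QYFamide-like and GLWamide-like cells and clusters 12 to 18, and they were not alike. For XLOC_030186, clusters 12 and 13 held 445 and 329 UMIs and GLWamide-like cells 7. MSTRG.12245 had 27 UMIs in cluster 15, 25 in QYFamide-like cells and 0 in clusters 17 and 18 and GLWamide-like cells. The test compares sums and does not show a gene to be higher in each of these clusters. MSTRG.12245 stood at 38.7, 23.1, 38.03 and 63.5 CPM in the neural clusters of the 66 hpf, 52 hpf, ACME and methanol samples, against 1.06, 0.566, 2.53 and 5.07 CPM in the remaining cells, a log2 fold change of 3.97 (SE 0.361, edgeR adjusted p = 5.33e-09). XLOC_004388 stood at 35.9, 12.6, 25.4 and 46.2 CPM, against 1.61, 0.647, 1.74 and 2.73 CPM (log2 fold change 3.66, SE 0.398, edgeR adjusted p = 8.72e-08). Both channel genes were higher in 4 of 4 samples, a count for which no share over all features was computed. XLOC_030186 stood at 729, 344.5, 357 and 57.7 CPM, against 17.8, 24.8, 10.7 and 13.5 CPM (3.78, SE 0.358, edgeR adjusted p = 1.03e-08). XLOC_008367 stood at 53.9, 8.40, 19.9 and 0 CPM, against 1.56, 0.405, 1.93 and 1.36 CPM (3.51, SE 0.513, edgeR adjusted p = 6.21e-06), higher in 3 of 4 samples. Of the 12945 features tested, 20.4% were higher and 26.5% lower in these clusters. Nk2d was not called (1.56, SE 0.692, edgeR adjusted p = 0.0698).

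Cluster 13 took part in this difference without deciding it, since without it the log2 fold changes were 3.91 for MSTRG.12245, 3.31 for XLOC_004388, 3.50 for XLOC_030186 and 2.77 for XLOC_008367, and all 4 genes were still called. Where the Nk2d-like cells were instead left in a larger cluster of 680 cells, XLOC_030186 was no longer called (0.56, edgeR adjusted p = 0.285). The neural clusters compared were then 390 cells in 2 clusters, against 938 cells in 9 clusters, so that this alternative compares another group of cells. The 4 samples differ in age, fixation or dataset, so the p-values do not measure the spread over larvae of one kind. In edgeR's test the spread is estimated largely from all genes together, so these p-values do not measure the own spread of each gene either.

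Neurosecretory-like cells, 388 cells named from the marker list of that type, were compared in the same way with the cells that were neither neurosecretory-like, Nk2d-like nor in a cluster with raised ELAV-2 and Synaptotagmin. HFRIamide-like cells (110 cells), in which these markers were not both raised, were among those remaining cells in both comparisons. In the neurosecretory-like cells XLOC_008367 stood at 11.8, 7.56, 22.1 and 0 CPM (8, 2, 6 and 0 UMIs) in the 66 hpf, 52 hpf, ACME and methanol samples, against 1.20, 0.248, 1.59 and 1.38 CPM in the remaining cells (log2 fold change 3.85, SE 0.713, edgeR adjusted p = 1.18e-06). XLOC_030186 stood at 105, 1017, 36.8 and 0 CPM, against 14.7, 3.14, 10.3 and 13.6 CPM (3.78, SE 0.468, edgeR adjusted p = 3.48e-14). A single 52 hpf cell held 252 of the 269 UMIs behind its 52 hpf value, together with 11 UMIs of MSTRG.18917, 2 of MSTRG.12245 and 1 of XLOC_004388. Without that cell the log2 fold change of XLOC_030186 was 2.96 (edgeR adjusted p = 3.72e-12), and with DESeq2 the gene was not called (2.85, adjusted p = 0.156). Whether that barcode held more than 1 cell was not tested. The other 17 of the 269 UMIs lay in 1 further cell of the 84 at 52 hpf. At 66 hpf 1 cell held 43 of the 71 UMIs. These 2 cells were kept in the comparison without the first cell.

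XLOC_004388 stood at 4.43, 11.3, 0 and 18.3 CPM in the neurosecretory-like cells (3, 3, 0 and 1 UMIs), against 1.51, 0.413, 1.77 and 2.56 CPM in the remaining cells (2.39, SE 0.892, edgeR adjusted p = 0.0316), and lost the call without the single cell (2.14, edgeR adjusted p = 0.0770). MSTRG.12245 stood at 1.48, 7.56, 3.68 and 0 CPM (1, 2, 1 and 0 UMIs), against 1.04, 0.413, 2.51 and 5.12 CPM, and was not called (1.49, SE 1.05, edgeR adjusted p = 0.314). In this comparison 9.92% of 12164 features were higher and 16.3% lower. XLOC_008367 and XLOC_030186 were thus higher in 3 of 4 samples each. In the methanol sample both were at 0 UMIs, which allows up to 55.0 CPM (3 UMIs) and cannot be ordered against the remaining cells.

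The study lists 33 further ion channel genes, chosen there as enriched at the aboral end of the larva, so that their direction is not independent evidence. In the Nk2d-like cells, MSTRG.12243 was the highest of those named here (806 ± 365 CPM, SD, n = 4 samples), followed by XLOC_006069, a polycystin cation channel gene (462.5 ± 115 CPM), and XLOC_010378, with ion transport and BTB/POZ domains (229 ± 67.1 CPM). In the other ELAV-2 and Synaptotagmin clusters 29 of the 33 could be tested, 23 were higher, 1 was lower and 5 were not called, where 20.4% of all features were higher and 26.5% lower, with a median log2 fold change of 3.62, against -0.11 over all features tested. The ones with the highest fold changes were XLOC_045142 (6.08), XLOC_033977 (5.76) and XLOC_012150 (5.48), and the one that was lower was XLOC_030356 (-7.39, edgeR adjusted p = 0.00962). MSTRG.12245 and XLOC_004388, at 3.97 and 3.66, lay near the middle of this list. In the neurosecretory-like cells 26 could be tested, 22 were higher and 0 lower, where 9.92% of all features were higher and 16.3% lower, with a median of 4.16, against -0.36 over all features, and XLOC_034271 (7.40), XLOC_045241 (6.44) and XLOC_019051 (6.35) had the highest fold changes. Both MSTRG.12245 and XLOC_004388 lay below the list's median there.

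The genes most like the 4 in their pattern over the 30 clusters were found by Pearson's r of log2(CPM + 10), a description over clusters that share libraries. XLOC_015940 was nearest to MSTRG.12245 (r = 0.898, and 0.852 with the Nk2d-like cells left out), followed by XLOC_004388 (0.817) and XLOC_012244 (0.781). MSTRG.12243 was nearest to XLOC_004388 (0.926), followed by MSTRG.11287 (0.863) and XLOC_039592 (0.851). For XLOC_030186 they were XLOC_031699 (0.891), MSTRG.18917 (0.870) and XLOC_040602 (0.849), and for XLOC_008367 MSTRG.18917 (0.938), XLOC_011709 (0.911) and XLOC_002833, a gene with an immunoglobulin I-set domain (0.898). MSTRG.18917 was thus near both XLOC_030186 and XLOC_008367 across clusters, although within the Nk2d-like cells most of their UMIs lay in cells with little MSTRG.18917.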

How the data were processed

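Single-cell suspensions of Clytia planulae were captured with 10X chemistry, and the authors' matrices hold raw UMI counts per feature and cell, deposited after STARsolo mapping with an EmptyDrops filter and a minimum of 300 UMIs. The version of STARsolo and the genome build are not given in the sources used here. No column was left unused for want of a sample (0 columns).

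Cells with 300 to 75000 UMIs, 200 to 5000 genes and at most 20% mitochondrial UMIs were kept. No doublet caller was run; 1 cluster of 230 cells without markers of its own was removed. The study's steps were followed with Scanpy 1.11.5 and Python 3.11.15: 3217 variable genes (the 4 genes, Nk2d and the other naming genes excluded), 22 principal components, Harmony integration over matrices as reimplemented for these data, 50 neighbors and Leiden clustering (leidenalg 0.10.2) at resolution 1. Clusters were named from fixed marker genes raised over 4 times, with at least 50% of a list and 3 markers. A cluster raising over 20% of the markers of more than 1 type was split again, a limit set once the place of the naming genes was known. Clusters were rebuilt, so differences from the study's clusters may come from that.

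Levels are UMIs per 1000000 UMIs of a group of cells, summed by sample, with exact Poisson or binomial 95% intervals. A count of 0 allows up to 3 UMIs of the group's total, which is given where a statement rests on it. Summed counts were tested with edgeR 4.0.16 in R 4.3.3 (quasi-likelihood, TMM, filterByExpr, Benjamini-Hochberg over all genes tested, called at an adjusted p of 0.05), with DESeq2 1.42.0 as an alternative. The sample was a block because both sums of a pair come from one dissociation; the deviations of the pairs correlated at 0.184 to 0.474. In simulated data, changes of 3 on the log2 scale were recovered for 88.0% of changed genes in the comparison of neural clusters (11591 genes). In that of neurosecretory-like cells (11367 genes) the share was 83.0%, and for changes of 2 the shares were 80.2% and 68.0%. The simulation gave every gene the same dispersion and no difference between samples, so these shares are not the power for the 4 genes.

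Named genes were the 4 genes, Nk2d, the naming genes, ELAV-2 and Synaptotagmin, from the list of aborally enriched ion channel genes the 3 highest in Nk2d-like cells and up to 3 with the largest change in each direction, and the 3 genes most like each gene among those with at least 50 UMIs. The genes and lists were chosen with earlier results of these data known.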

Additional observations from a re-analysis of the deposited data

Results flagged for a closer look

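In 5 of 35 sets of 4 sample values examined, 1 sample lay far from the other 3, with a gap to the nearest of them that took up more of the whole range than Dixon's critical value for 4 samples allows. Chance gives this in about 1 in 20 sets, and the 4 samples differ in age, fixation or dataset. XLOC_004388 in all clustered cells was low at 52 hpf, at 1.396 CPM. XLOC_030186 was high at 66 hpf in QYFamide-like cells, at 419 CPM, where 2 of 85 cells held 35 and 15 of its 51 UMIs. It was also high at 52 hpf in neurosecretory-like cells, at 1017 CPM, where 1 cell held most of its UMIs. XLOC_004388 in cluster 15 was high in the methanol sample, at 77.7 CPM, on 1 UMI, and XLOC_008367 in cluster 12 stood at 13.7 CPM at 66 hpf, on 2 UMIs, with the other samples at 0.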

How the results depend on the processing

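Of 226 values of the main comparisons under alternatives, 198 were labelled as close and 28 as moved. These labels depend on the limit set for each kind of value, and the 198 are not read as a measure of stability. In the tests of the 4 genes and Nk2d, no fold change was reversed in direction. In the neural clusters, MSTRG.12245 and XLOC_004388 were called under each of 19 alternatives (log2 fold changes 3.38 to 4.45 and 2.90 to 4.16), XLOC_008367 under each of 18 in which it was tested (2.75 to 4.00) and XLOC_030186 under 18 of 19 (0.56 to 5.22). Nk2d was called in 2 of 11, without integration and without normalization. In neurosecretory-like cells XLOC_004388 lost its call in 9 of 18 (adjusted p 0.00877 to 0.430), XLOC_030186 in 1 of 19 (1.65 to 5.601), XLOC_008367 in 0 of 18 and MSTRG.12245 was called in 0 of 18. Without the replicate block fewer genes passed the filter: 3 of the 4 genes were tested and called in the neural clusters and 1 of 1 (XLOC_030186) in neurosecretory-like cells, with 1816 and 979 genes lower, against 3428 and 1984 with it. Without normalization 1865 and 3034 genes were lower. Leaving out 1 sample or technical replicate gave 697 to 1260 genes higher (1207 in the full comparison) and 1124 to 2723 lower in neurosecretory-like cells, the low ends both without the 66 hpf sample. Lower genes were also few without the ACME sample, at 1168.

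Splitting clusters only above 25% of a marker list, an alternative chosen after seeing the data, left 680 cells in the cluster called Nk2d-like, with XLOC_004388 at 72.2, XLOC_030186 at 3246, XLOC_008367 at 112 and Nk2d at 46.2 CPM, and 1734 genes higher in the neural clusters, against 2637. With that limit the neural clusters were 390 cells in 2 clusters. The alternatives without cluster 13, with it joined to the Nk2d-like cells and without 1 neurosecretory-like cell were also chosen after seeing the data. Without integration (122 cells), XLOC_008367 stood at 792 and Nk2d at 241 CPM. The ratio of 66 hpf to 52 hpf for XLOC_030186 was 1.63 on TMM and 1.60 on DESeq2 scaling, which move the ratio of all genes by -0.23 and -0.26 on the log2 scale, and 1.58 to 2.23 with 1 technical replicate left out. Shares of Nk2d-like cells follow depth. Unthinned they were 32.6% for MSTRG.12245, 24.2% for XLOC_004388, 65.2% for XLOC_030186, 34.1% for XLOC_008367 and 25.8% for Nk2d, and at 1000 UMIs 22.4%, 21.6% and 26.7% for MSTRG.12245, XLOC_004388 and XLOC_008367. The excess of cells with both Nk2d and XLOC_030186 was 26.8 times the expected number at 500 UMIs. The cause of the other shifts was not tested.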
